A study of Mus musculus with 10 samples.

Results

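The genes described here are 10 markers of oligodendrocyte precursor cells: Pdgfra, Cspg4, C1ql1, Lhfpl3, Pcdh15, Emid1, Neu4, Matn4, Tmem100 and Xylt1. They were taken by name, through their Entrez Gene identifiers, from the 26301 genes of the count files, and all 10 were found. RNA was sequenced from spinal cords of C57BL/6 mice, an inbred strain in wide laboratory use, in 10 libraries: 3 male and 3 female libraries at 8 weeks of age, and 2 male and 2 female libraries at 4 weeks. No mutation, transgene or treatment is named for any group, and the series' design names the ages as its comparison. The tissue is whole cord, so each value is an average over all its cells, and fewer cells of a type cannot be told apart from less RNA per cell. Nothing in the labels says that each numbered replicate is its own animal, so the spread behind every p-value is that between these libraries and may be technical.

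Oligodendrocyte precursor cells are the dividing glia of the cord that persist into adult life and give rise to the oligodendrocytes that wrap axons in myelin. Platelet-derived growth factor A (PDGF-A), made by neurons and astrocytes, acts on the receptor Pdgfra to keep these cells alive and dividing. As a cell leaves the cycle and begins to myelinate, it stops making the receptor and the surface proteoglycan NG2, the product of Cspg4. The other genes of the group encode secreted proteins (C1ql1, Emid1, Matn4), membrane proteins (Lhfpl3, Pcdh15, Tmem100) and sugar-handling enzymes (Neu4, Xylt1) that mouse expression studies find high in these cells. Several are not theirs alone: Pdgfra is also made by fibroblasts of the meninges, Cspg4 by pericytes, Tmem100 by endothelium and lung, and Matn4 by cartilage.

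Promoter sequences were read from RefSeq for 7 of the 10 genes, as windows of 300 bases from 250 before to 50 after a transcription start on build GRCm38.p6. They were searched on both strands for ACAAAG, a core letter string of SOX factor sites, and for the E-box strings CAGCTG and CATCTG, which basic helix-loop-helix factors such as the Olig and Ascl proteins can bind. Shown are the windows of Neu4 and Emid1, the genes that were lower at 8 weeks, and of Lhfpl3, the most abundant of the group per length, with every match in capitals. The Neu4 window is chr1:94020243-94020542 on the plus strand. The Emid1 windows, for separate starts, are chr11:5152181-5152480 and chr11:5150025-5150324 on the minus strand, and the Lhfpl3 window is chr5:22745804-22746103 on the plus strand.
Neu4: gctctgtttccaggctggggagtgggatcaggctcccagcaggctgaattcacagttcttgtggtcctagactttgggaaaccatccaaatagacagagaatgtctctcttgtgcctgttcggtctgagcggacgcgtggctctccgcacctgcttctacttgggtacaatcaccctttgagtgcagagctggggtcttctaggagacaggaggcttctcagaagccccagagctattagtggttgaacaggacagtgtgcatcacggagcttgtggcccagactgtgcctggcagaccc
Emid1, start 1: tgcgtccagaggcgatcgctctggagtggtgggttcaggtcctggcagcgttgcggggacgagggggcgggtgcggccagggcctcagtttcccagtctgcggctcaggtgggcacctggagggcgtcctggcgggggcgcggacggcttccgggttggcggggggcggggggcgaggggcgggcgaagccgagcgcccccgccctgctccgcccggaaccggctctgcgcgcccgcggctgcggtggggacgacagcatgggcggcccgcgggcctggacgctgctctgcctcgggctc
Emid1, start 2: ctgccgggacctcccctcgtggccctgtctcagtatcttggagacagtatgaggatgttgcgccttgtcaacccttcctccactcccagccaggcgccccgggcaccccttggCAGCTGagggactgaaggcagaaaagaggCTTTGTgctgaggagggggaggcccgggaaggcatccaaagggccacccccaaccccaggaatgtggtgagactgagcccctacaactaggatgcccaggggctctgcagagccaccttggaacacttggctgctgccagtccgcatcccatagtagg
Lhfpl3: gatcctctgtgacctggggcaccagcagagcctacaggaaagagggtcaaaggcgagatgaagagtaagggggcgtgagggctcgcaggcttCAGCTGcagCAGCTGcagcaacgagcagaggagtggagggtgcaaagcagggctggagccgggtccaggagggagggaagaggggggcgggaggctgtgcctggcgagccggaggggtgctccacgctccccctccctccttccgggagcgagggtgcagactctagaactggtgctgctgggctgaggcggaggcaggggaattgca
The Neu4 window and the window of Emid1 start 1 held none of the strings. Emid1 start 2 held the SOX string, as its reverse complement CTTTGT, and CAGCTG, and the Lhfpl3 window held CAGCTG at 2 places. Over all members, 5 of 9 windows held at least 1 string, with CAGCTG in 4, ACAAAG in 1 and CATCTG in 1. Among 32851 windows of mouse genes, 43.5% held at least 1 string, with 18.7% for ACAAAG, 16.3% for CAGCTG and 17.2% for CATCTG. GC content of the members' windows ran between 50.7% for Pcdh15 and 77.3% for Emid1 start 1. A match is only a string of letters, and binding was not measured.

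All 10 genes were detected in every library. A library held between 8453559 and 11594610 counts in genes, and the least abundant members had few of them: Emid1 had between 36 and 91 counts, Matn4 between 68 and 88, and Xylt1 between 28 and 135. Some libraries also held transcripts of other tissues: both male 4-week libraries of adrenal gland and male 8-week libraries 2 and 3 of lung. The 4-week libraries held more of skeletal muscle than the 8-week ones, and several genes of cartilage and bone were also higher at 4 weeks. Values are given beside the results and at the end. Levels are given as CPM, which relates a gene's counts to the library total, with TMM scaling for library composition, and changes as log2 fold changes of 8 weeks over 4 weeks with their standard error (SE). To compare the genes with each other, CPM was divided by exon length in kilobases. A gene's exon length is the merged length of the exons of all its annotated transcripts. It came from the GENCODE annotation of GRCm38, a later build than the mm9 genome of the files. The length over which reads were counted may differ, so the order of the genes per length is approximate. Per kb of exon, Lhfpl3 was highest, at 24.3 ± 1.20 CPM in 8-week libraries and 23.9 ± 2.04 in 4-week libraries (SD, n = 6 and 4). C1ql1 had 16.6 ± 1.40 CPM per kb at 8 weeks and 19.5 ± 1.60 at 4 weeks, Tmem100 had 13.3 ± 0.708 and 15.7 ± 3.57, Pdgfra 6.26 ± 0.308 and 6.91 ± 0.798, and Neu4 4.62 ± 0.303 and 5.99 ± 0.826. At 8 weeks these 5 genes stood apart from each other by more than their SDs, while at 4 weeks C1ql1 and Tmem100 overlapped within 1 SD, and so did Pdgfra and Neu4. The other 5 lay lower, from Cspg4 at 1.95 ± 0.289 CPM per kb and Emid1 at 1.83 ± 0.385 to Pcdh15 at 0.981 ± 0.162 in 8-week libraries. Cspg4 and Emid1 overlapped within 1 SD at either age, and so did Xylt1 and Pcdh15.

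**Figure D1:**
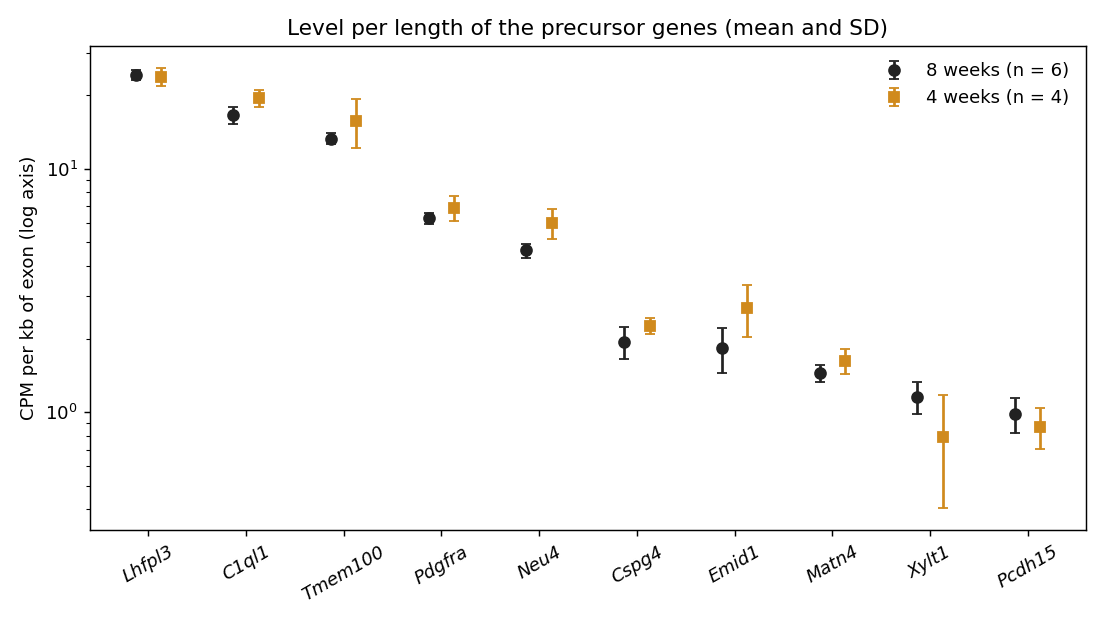
Level of each precursor gene per kb of exon, in CPM per kb on a log axis, as the mean and SD of 6 libraries at 8 weeks (left of each pair, circles) and 4 libraries at 4 weeks (right, squares). Lhfpl3 is highest at 24.3 and 23.9 CPM per kb and Pcdh15 is lowest at 8 weeks at 0.981 CPM per kb.

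Neu4 and Emid1 were lower in 8-week than in 4-week cord, and the other 8 genes of the group did not pass the test. Neu4 fell by 0.38 on the log2 scale (SE 0.08) and Emid1 by 0.54 (SE 0.15). The receptor Pdgfra, the marker most used for these cells, stood at −0.14 (SE 0.07), and Lhfpl3 at 0.02 (SE 0.06). So 2 of 10 members were called lower and 0 higher at an adjusted p under 0.05, by edgeR's quasi-likelihood F test on 15540 genes with p-values adjusted over all of them. Of all those genes 6.62% were called, 5.01% lower and 1.61% higher, and the members' share rests on a count of 2. The median log2 fold change of the 10 was −0.19, against 0.01 over all tested genes, and 7 of 10 lay below 0, as did 48.4% of all genes. At an unadjusted p under 0.05 there were 5 of the 10, 4 lower and 1, Xylt1, higher, against 21% of all genes in either direction.

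**Figure D2:**
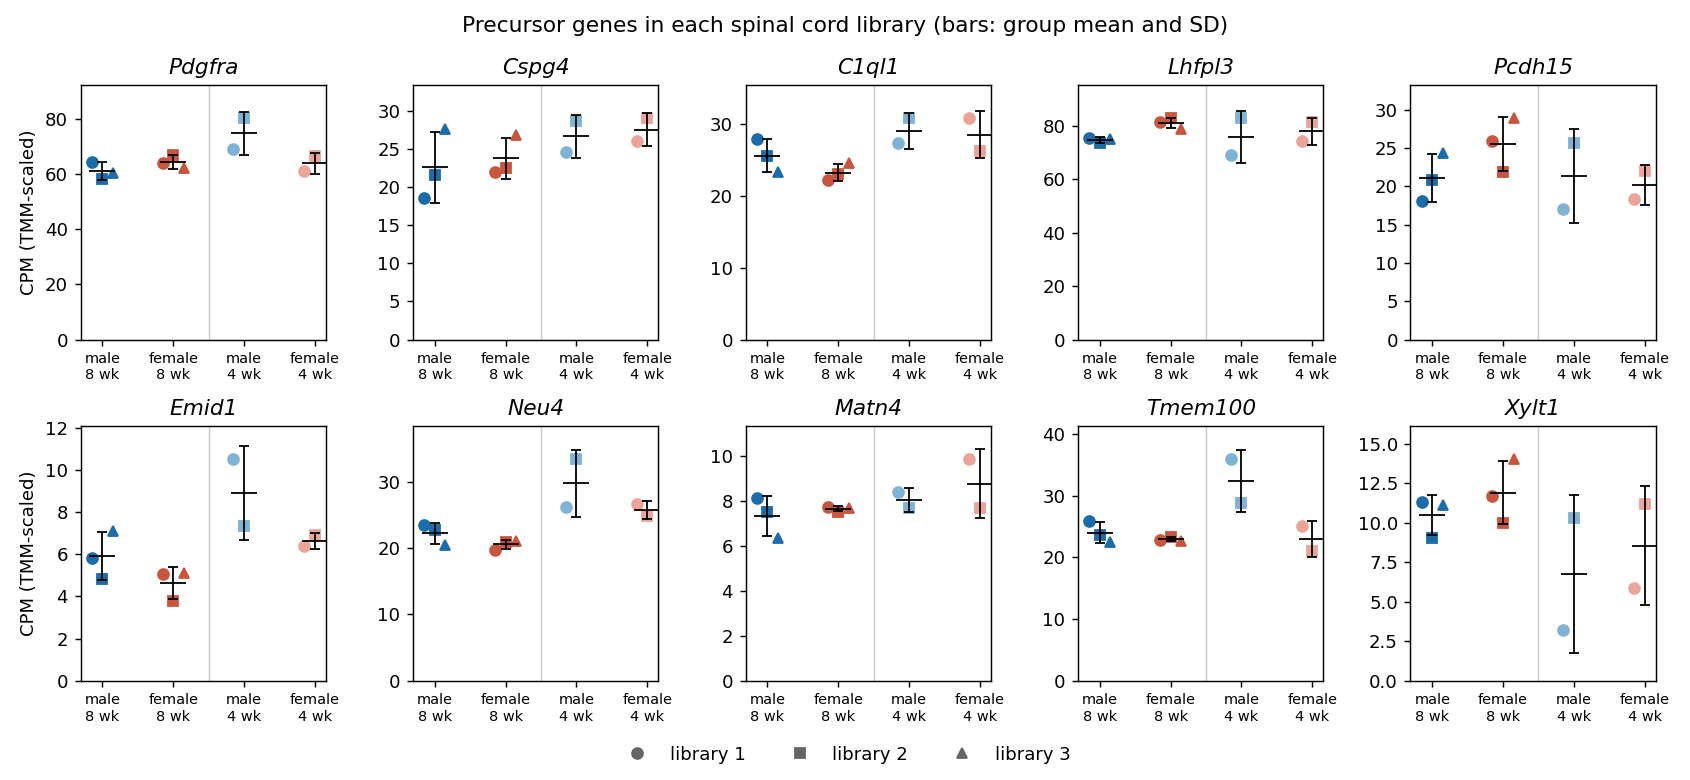
Level of each precursor gene in CPM (TMM-scaled) in every library, with the 8-week groups left of the 4-week groups in each panel. Points are libraries (circle 1, square 2, triangle 3) and bars are the group mean and SD. For Neu4 all 6 of the 8-week libraries, at 19.8 to 23.5 CPM, lie below the 4-week libraries at 24.8 to 33.4 CPM, while for Lhfpl3 the ages overlap.

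Of the enzymes, Neu4 (Entrez Gene 241159) encodes a sialidase, which trims sialic acid from glycoproteins and glycolipids, polysialic acid included. It had 23.5, 22.7 and 20.5 CPM in the male and 19.8, 20.9 and 21.1 CPM in the female 8-week libraries, against 26.2 and 33.4 CPM in the male and 26.7 and 24.8 CPM in the female 4-week libraries. No 8-week library reached the lowest 4-week library, which was so, in that direction, for 4.84% of all tested genes. The mean was 21.4 ± 1.40 CPM at 8 weeks and 27.8 ± 3.83 CPM at 4 weeks (SD, n = 6 and 4; edgeR adjusted p = 0.0133). That call held without any single library, at edgeR adjusted p values between 0.00776 and 0.0375. It ended without the male 4-week pair, which carried adrenal transcripts (−0.32, edgeR adjusted p = 0.140). Without that pair, the age difference rests on the 3 female 8-week and 2 female 4-week libraries alone. The call also ended without male 8-week libraries 2 and 3, with their lung transcripts (−0.33). That fit also rests on fewer libraries, and the part of lung transcripts was not tested. With a skeletal muscle score as a covariate it ended as well (−0.61, SE 0.21 against 0.08 without the score, edgeR adjusted p = 0.214). The muscle genes summed to 37.9 to 138 CPM at 8 weeks and 456 to 1793 CPM at 4 weeks. That score thus nearly follows age, and for any gene that fit can hardly tell age from muscle content.

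Xylt1 (Entrez Gene 233781), the xylosyltransferase that starts the sugar chains of proteoglycans such as NG2, had the widest spread of the group. It had 11.3, 9.04 and 11.1 CPM in the male and 11.7, 10 and 14 CPM in the female 8-week libraries, against 3.23 and 10.3 CPM in the male and 5.89 and 11.2 CPM in the female 4-week libraries. The 4-week libraries split, with library 1 of each sex low and library 2 of each sex within the range of the 8-week libraries. Its log2 fold change of 0.52 (SE 0.24) did not pass (edgeR adjusted p = 0.231). The value was 0.29 without male 4-week library 1, and without male 4-week library 2 it was 0.81 and passed (adjusted p = 0.0480).

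The proteoglycan Cspg4 and the receptor Pdgfra did not pass. Pdgfra (Entrez Gene 18595) had 64.4, 58.3 and 60.4 CPM in the male and 63.9, 67.0 and 62.2 CPM in the female 8-week libraries, against 69.1 and 80.2 CPM in the male and 61.2 and 66.6 CPM in the female 4-week libraries. The male 4-week libraries were the highest of the 10, and the remaining 8 overlapped across the ages (adjusted p = 0.280 by edgeR). Cspg4 (Entrez Gene 121021) had 18.6, 21.6 and 27.7 CPM in the male and 22, 22.6 and 26.9 CPM in the female 8-week libraries, against 24.7 and 28.7 CPM in the male and 26.1 and 29.1 CPM in the female 4-week libraries. In each sex the third 8-week library reached into the 4-week range, and the change was −0.22 (SE 0.11, edgeR adjusted p = 0.245). It passed with the replicate number as a block (−0.36, SE 0.08, edgeR adjusted p = 0.0194), though these numbers were not taken to pair the libraries, and with the median of long genes as a covariate, given further on.

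Of the secreted proteins, Emid1 (Entrez Gene 140703), which carries an EMI domain and collagen-like repeats, was called lower by a narrow margin. It had 5.83, 4.85 and 7.11 CPM in the male and 5.06, 3.77 and 5.10 CPM in the female 8-week libraries, against 10.5 and 7.32 CPM in the male and 6.37 and 6.90 CPM in the female 4-week libraries. Male 8-week library 3 was the only 8-week library inside the 4-week range, and male 4-week library 1 was the highest of all. The mean was 5.28 ± 1.11 CPM at 8 weeks and 7.77 ± 1.86 CPM at 4 weeks (edgeR adjusted p = 0.0482). The call held without male 4-week library 2 (adjusted p = 0.0243) or male 8-week library 3 (0.0420) and ended without any of the other 8 libraries, with the highest adjusted p, 0.188, and a change of −0.42 without male 4-week library 1. DESeq2 (0.0543) and limma-voom (0.0531) did not call it, and it also ended without both male 4-week libraries (−0.52, SE 0.22, 0.279), without male 8-week libraries 2 and 3 (−0.55, SE 0.17, 0.136) and with the muscle score (−0.46, SE 0.41, 0.632).

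C1ql1 (Entrez Gene 23829), a secreted protein of the C1q family that binds the adhesion receptor Adgrb3, had 27.9, 25.5 and 23.3 CPM in the male and 22.2, 23.0 and 24.5 CPM in the female 8-week libraries, against 27.3 and 30.8 CPM in the male and 30.8 and 26.2 CPM in the female 4-week libraries. Of the 8-week libraries, 5 of 6 lay below every 4-week library, and the exception was male library 1. The share of all genes with 5 of 6 below was not counted. Its change of −0.24 (SE 0.08) did not pass (edgeR adjusted p = 0.0967). Matn4 (Entrez Gene 17183), a matrilin that links components of the extracellular matrix, lay between 6.36 and 8.12 CPM at 8 weeks and between 7.67 and 9.85 CPM at 4 weeks, and it did not pass either, at −0.16 (SE 0.12).

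Of the membrane proteins, Lhfpl3 (Entrez Gene 269629), of the LHFPL family of tetraspan proteins, had 73.5 to 83.0 CPM at 8 weeks and 69.0 to 82.9 CPM at 4 weeks. The means, 78.0 ± 3.85 and 76.9 ± 6.55 CPM, differed by less than either SD. Pcdh15 (Entrez Gene 11994), a protocadherin known from the tip links of inner ear hair cells, had 18.1 to 28.9 CPM at 8 weeks and 17.0 to 25.7 CPM at 4 weeks, with a change of 0.15 (SE 0.13). Tmem100 (Entrez Gene 67888), a small membrane protein that endothelium makes in response to bone morphogenetic protein signals, had 25.9, 23.7 and 22.5 CPM in the male and 22.9, 23.3 and 22.7 CPM in the female 8-week libraries, against 35.9 and 28.8 CPM in the male and 25.1 and 21.0 CPM in the female 4-week libraries. The male 4-week libraries were high, the female 4-week libraries enclosed all 8-week values but that of male library 1, and the change of −0.22 (SE 0.10) did not pass (edgeR adjusted p = 0.227). None of these 3 membrane proteins passed for age.

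Within each sex alone, none of the 10 genes passed. In males 0 of 10 were called by edgeR, where 3.22% of all genes were, and 4 had an unadjusted p under 0.05, all with a change below 0, against 16.6% of all genes. These were Neu4 at −0.43 (SE 0.12, edgeR adjusted p = 0.0764), Tmem100 at −0.42 (SE 0.12, 0.0869), Pdgfra at −0.29 (SE 0.09) and Emid1 at −0.57 (SE 0.22). Neu4 passed without male 4-week library 1 (−0.58, edgeR adjusted p = 0.0303). Without male 4-week library 2, Tmem100 passed at −0.57 (edgeR adjusted p = 0.0199) and Xylt1 at 1.71 (0.0197), and in each of these fits the male 4-week group is a lone library assumed to vary like the other groups. In females 0 of 10 were called, against 1.45% of all genes, and 3 had an unadjusted p under 0.05, against 12.1% of all genes: Neu4 at −0.32 (SE 0.12, edgeR adjusted p = 0.285), Emid1 at −0.52 (SE 0.23) and C1ql1 at −0.29 (SE 0.12). DESeq2 and limma-voom called 0 of 10 in either sex.

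**Figure D3:**
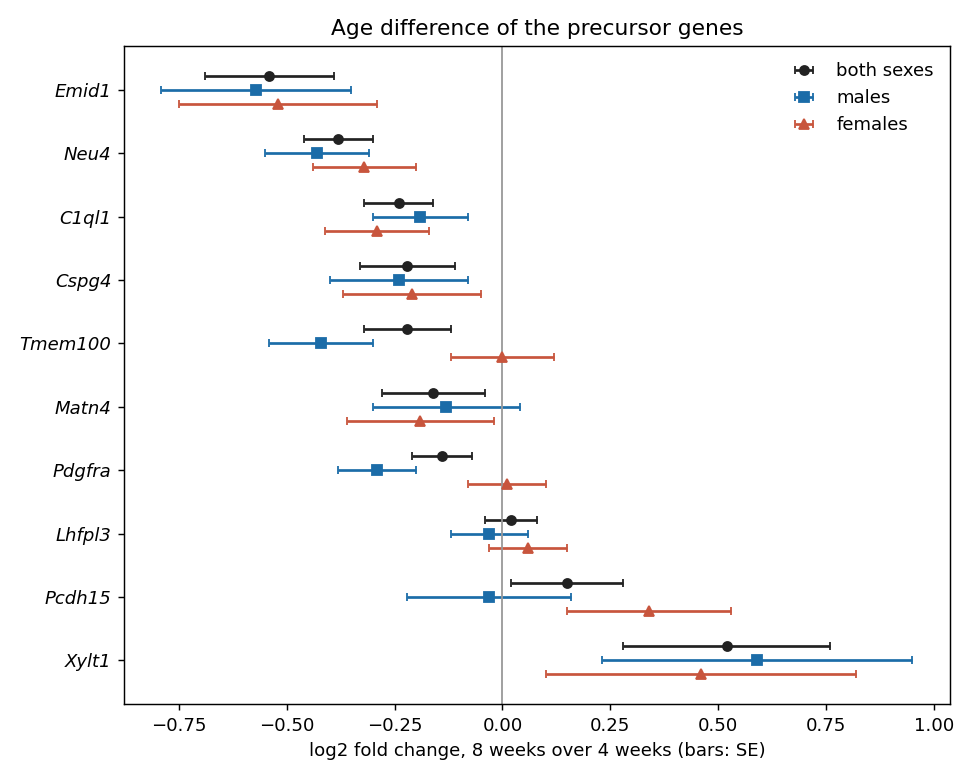
Log2 fold change of 8 weeks over 4 weeks for each precursor gene (bars: SE), over both sexes (circles), in males (squares) and in females (triangles). Emid1 and Neu4 lie left of 0 in each, at −0.54 and −0.38 over both sexes, while Pdgfra and Tmem100 lie left of 0 in males and at 0.01 and −0.00 in females.

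The age change was also compared between the sexes, as the male change minus the female change. Tmem100 stood at −0.42 (SE 0.17), Pcdh15 at −0.37 (SE 0.26) and Pdgfra at −0.30 (SE 0.12), and the other 7 lay between −0.11 and 0.13. Tmem100 and Pdgfra had the lowest p by edgeR, 0.0317 and 0.0303 unadjusted and 0.970 adjusted, so neither passed. Of the 10 genes 0 were called, as were 0.0129% of all genes, and 2 had an unadjusted p under 0.05, where 4.82% of all genes did. DESeq2 and limma-voom called 0 of 10 as well. Male 4-week library 2 had the highest Pdgfra level of all libraries and male 4-week library 1 the highest Tmem100 level, and these same libraries held adrenal transcripts, with 136 summed CPM over 8 adrenal genes in library 1 and 101 in library 2, against 13.3 to 17.0 CPM in the other 8. Male 4-week library 1 also had the highest sums of skeletal muscle (1793 CPM), fibroblast and meninges (2459 CPM) and pericyte genes (221 CPM). Male 4-week library 2 had 456, 1528 and 176 CPM for these lists. Endothelial genes summed to 172 and 136 CPM in the 2 libraries, with the highest sum, 178 CPM, in female 8-week library 3. The part of any of these transcripts in the differences between the sexes was not tested.

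Between the sexes, over both ages, 0 of the 10 genes were called by edgeR, where 0.0901% of all genes were. An unadjusted p under 0.05 was found for 2 of the 10, against 7.36% of all genes: Emid1, at a male over female log2 fold change of 0.38 (SE 0.15, edgeR adjusted p = 0.634), and Tmem100, at 0.24 (SE 0.10, 0.652). Emid1 had 4.85 to 10.5 CPM in male and 3.77 to 6.90 CPM in female libraries, so the sexes overlapped. DESeq2 and limma-voom called 0 of 10.

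The 10 genes were also averaged in each library. After each gene's log2 CPM was centred on its mean over the 10 libraries, the average over the members lay between −0.10 and 0.04 in 8-week libraries and between −0.03 and 0.22 in 4-week libraries. Male 4-week library 2 was highest, with 1 of 10 members below its own mean. In male 8-week library 2, which held lung transcripts, all 10 members lay below their own mean, at −0.31 to −0.02. The share of all genes below their own mean in these libraries was not counted. Male 4-week library 1 held both the lowest and the highest single values of all, with Xylt1 at −1.45 and Emid1 at 0.77. Within groups the SD of log2 CPM was 0.56 for Xylt1, and 98.8% of the 1874 genes of like level had a lower one. It was 0.25 for Pcdh15, where 93% of genes of like level were lower, and 0.20 for Cspg4, where 86.5% were. For the other 7 members it was 0.09 to 0.25, with 21% to 64.5% of genes of like level lower.

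Xylt1, Pcdh15, Cspg4 and Pdgfra have the longest total exon length of the group, at 9651, 23773, 11931 and 10024 bases. Of the tested genes with a known length, 89.3% or more are shorter. The first 3 of these have the spreads furthest above genes of like level, while Pdgfra has an SD of 0.09, with 38% of genes of like level lower, and a relation of spread to length was not tested. The 10% of genes with the longest total exon length were 1487 genes of at least 9861 bases. Their median centred log2 CPM differed between libraries, a comparison chosen after the values were seen. It lay between −0.0931 and 0.130 in 8-week libraries. In 4-week libraries it was −0.221 and −0.117 in library 1 of the males and females and 0.102 and 0.0969 in library 2. The male and female 4-week libraries 1 were also the lowest for Xylt1, and with male 8-week library 1 the lowest for Pcdh15. With that median added as a covariate, Neu4 stood at −0.40 (edgeR adjusted p = 0.00328), Emid1 at −0.52 (0.0439), and Cspg4 passed at −0.29 (SE 0.08, 0.0331). Pcdh15 then stood at 0.05 and Xylt1 at 0.39 (SE 0.15), neither of which passed, and the sign of Lhfpl3 turned, at −0.02. Cspg4, Pcdh15 and Pdgfra are themselves among the genes behind that median. With it the edgeR calls over all genes also rose, from 1028 to 1734, so the Cspg4 call came with more calls of genes at large.

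**Figure D4:**
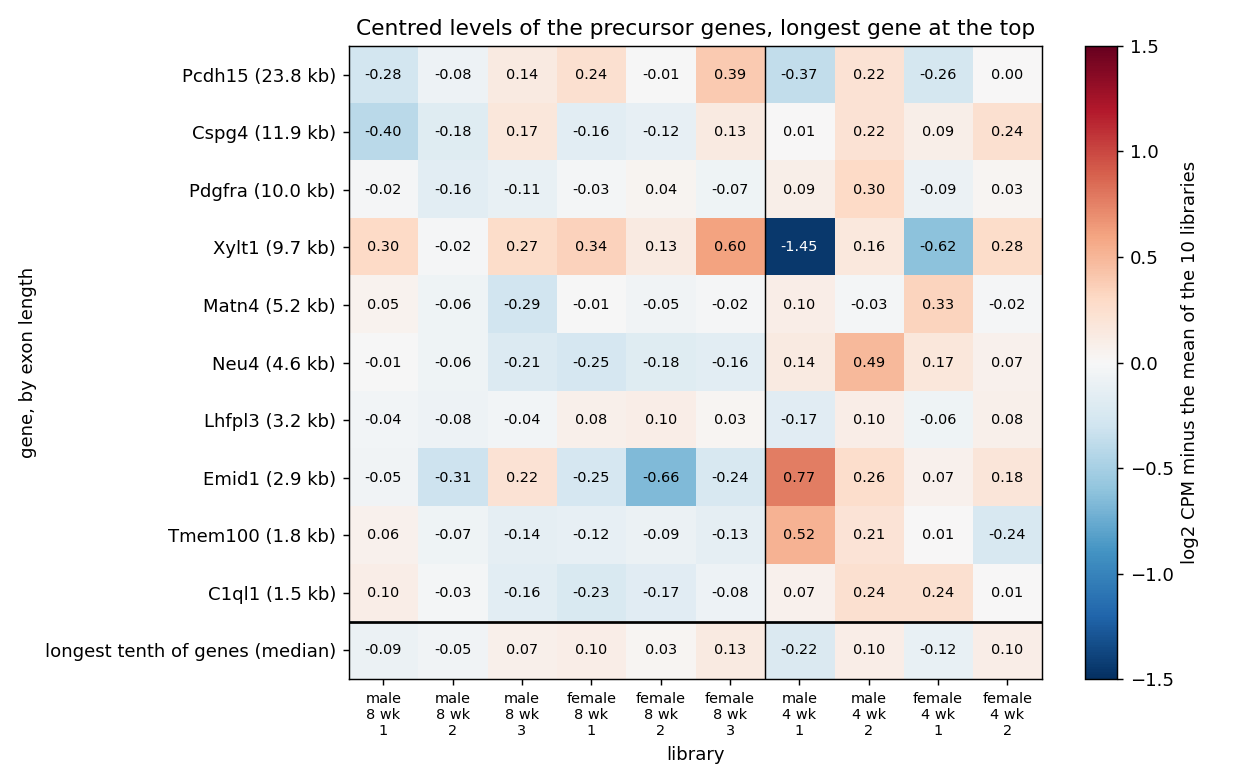
Log2 CPM of each precursor gene minus its own mean over the 10 libraries, coloured from −1.5 to 1.5, with genes ordered by exon length and 8-week libraries left of 4-week libraries. The bottom row gives the median of the 10% of genes with the longest total exon length. Xylt1 is lowest, at −1.45 and −0.62, in the male and female 4-week libraries 1, where the bottom row is also lowest.

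By a fixed rule, the 5 genes whose centred profile over the 10 libraries was nearest to the average profile of the members were Fem1b, Fam171a1, Gspt1, Senp6 and Eprs. Their root mean square differences were 0.041 to 0.048 on the log2 scale, against a median of 0.17 over 13945 candidate genes. The members' average moves little, so near genes are ones that hardly vary: their age changes were −0.14 to −0.07 on the log2 scale.

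Other genes of the same cells were set beside the members. Of 20 further precursor genes, the transcription factors Sox10 and Olig1, which are also made by mature oligodendrocytes, were called lower, 0 were called higher and 18 did not pass. Olig1 fell by 0.31 (SE 0.06), to 353 ± 18.6 CPM at 8 weeks against 437 ± 29.6 CPM at 4 weeks, and Sox10 fell by 0.29 (SE 0.05), to 179 ± 9.10 CPM against 219 ± 19.7 CPM. For each, 6 of 6 libraries at 8 weeks lay below every 4-week library, which was so for 4.84% of all tested genes. The list's median log2 fold change was −0.07. With the muscle score as a covariate neither call held, at −0.13 (SE 0.14) for Olig1 and −0.14 (SE 0.13) for Sox10 (edgeR adjusted p = 0.702 and 0.638). The 2 calls became 5, all lower, with the long-gene covariate, 4, of which 2 were higher, without male 4-week library 2, 3 lower without female 4-week library 1, and 3, of which 1 was higher, without both male 4-week libraries. Of 16 genes of PDGF ligands and signalling 0 were called by edgeR, DESeq2 or limma-voom, 1 had an unadjusted edgeR p under 0.05, and the median was 0.01. Pdgfa, the ligand of Pdgfra, had 35.7 ± 2.65 CPM at 8 weeks and 35.3 ± 2.34 CPM at 4 weeks, and the lowest p was that of the adaptor Shc1, at −0.23 (edgeR adjusted p = 0.209).

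Relatives and binding partners of the members were set beside them per length. Of 19, 16 passed the filter on low counts, 0 were called by edgeR, DESeq2 or limma-voom, and 1 had an unadjusted edgeR p under 0.05, with a median of −0.04. The lowest p was that of Matn2, another matrilin, at −0.37 (SE 0.13, edgeR adjusted p = 0.118), which passed without female 8-week library 3 (0.0256) and with the long-gene covariate (−0.42, SE 0.12, 0.0385). Among sialidases, Neu1, the lysosomal enzyme, had 17.1 CPM per kb at 8 weeks and 15.8 at 4 weeks, against 4.62 and 5.99 for Neu4, and Neu3 of the plasma membrane had 1.97 and 1.98. Neu1 stood at a log2 fold change of 0.12 and Neu3 at −0.01, and neither passed. Pdgfrb, the receptor of pericytes, had 3.73 CPM per kb at 8 weeks and 4.15 at 4 weeks, and Xylt2, the other xylosyltransferase, had 7.66 and 8.16.

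Of 18 other genes of proteoglycan chain synthesis, Xylt2 among them, 17 were tested, 1 was called lower and 0 higher, with a median of 0.05. The gene called was Chst3, which puts sulfate on chondroitin, with a log2 fold change of −0.54 (SE 0.08, edgeR adjusted p = 0.000731). It had 15.8 ± 1.61 CPM at 8 weeks and 23.1 ± 2.92 CPM at 4 weeks. All 6 of 6 libraries at 8 weeks lay below every 4-week library, as for 4.84% of all tested genes. Its call ended with the muscle score as a covariate (−0.77, SE 0.21, edgeR adjusted p = 0.143).

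Lists for cell division and for later steps of the lineage held more calls, and differences between lists were not tested. Of 17 tested cell division genes 14 were called lower, with a median of −1.10. Top2a, which untangles replicated DNA, fell by 1.48 (SE 0.19), Mki67, a marker of cycling cells, by 1.58 (SE 0.24), Rrm2, which makes DNA precursors, by 1.26, and the cyclin Ccna2 by 1.23. The summed level of 18 cell division genes was 73.9 to 88.2 CPM at 8 weeks and 109 to 176 CPM at 4 weeks, and which cells divide cannot be read from whole tissue. Of 12 genes of newly forming oligodendrocytes 8 were called lower and 1 higher, with a median of −0.37. Gpr17, a receptor made just before myelination, fell to 95.9 ± 8.12 CPM at 8 weeks, against 166 ± 19.3 CPM at 4 weeks, and the transcript 9630013A20Rik fell by 1.39, the GTPase Rras2 by 0.78 and the kinase Fyn by 0.36. Of 18 mature oligodendrocyte and myelin genes 11 were called lower, with a median of −0.39, among them the compact myelin protein Mal at −1.05, the tight junction protein Cldn11 at −0.87, the galactolipid enzyme Ugt8a at −0.96 and the surface protein Mog at −0.75. The 14 cell division calls became 4 without both male 4-week libraries, with a median of −0.91, 7 without male 8-week libraries 2 and 3 (−1.17) and 0 with the muscle score (−0.46). They became 6 without male 4-week library 1 or female 4-week library 2, 8 without female 8-week library 3 or with the replicate number as a block, and 9 without female 8-week library 2 or any 1 of the male 8-week libraries, with medians of −1.21 to −0.97. The 8 lower calls of newly forming cells became 6, 6 and 2 under the first 3 of these settings, with medians of −0.42, −0.39 and −0.48. The 11 of mature cells became 10, 9 and 2, with medians of −0.45, −0.38 and −0.14. The summed level of the 10 precursor genes was 268 to 292 CPM at 8 weeks and 284 to 336 CPM at 4 weeks, so the ages overlapped. They also overlapped for the newly forming genes, at 1476 to 1622 CPM and 1513 to 1666 CPM. That sum joins the 8 genes called lower with Bcas1, called higher at 0.21 (SE 0.05). So did the 20 further precursor genes, at 1879.8 to 2039 CPM and 2009 to 2161 CPM. The summed myelin genes did not overlap, at 41497 to 49873 CPM and 65362 to 69208 CPM. A sum weighs abundant genes most, and among the 10 members these were Lhfpl3 and Pdgfra, at means of 78 and 62.7 CPM at 8 weeks.

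**Figure D5:**
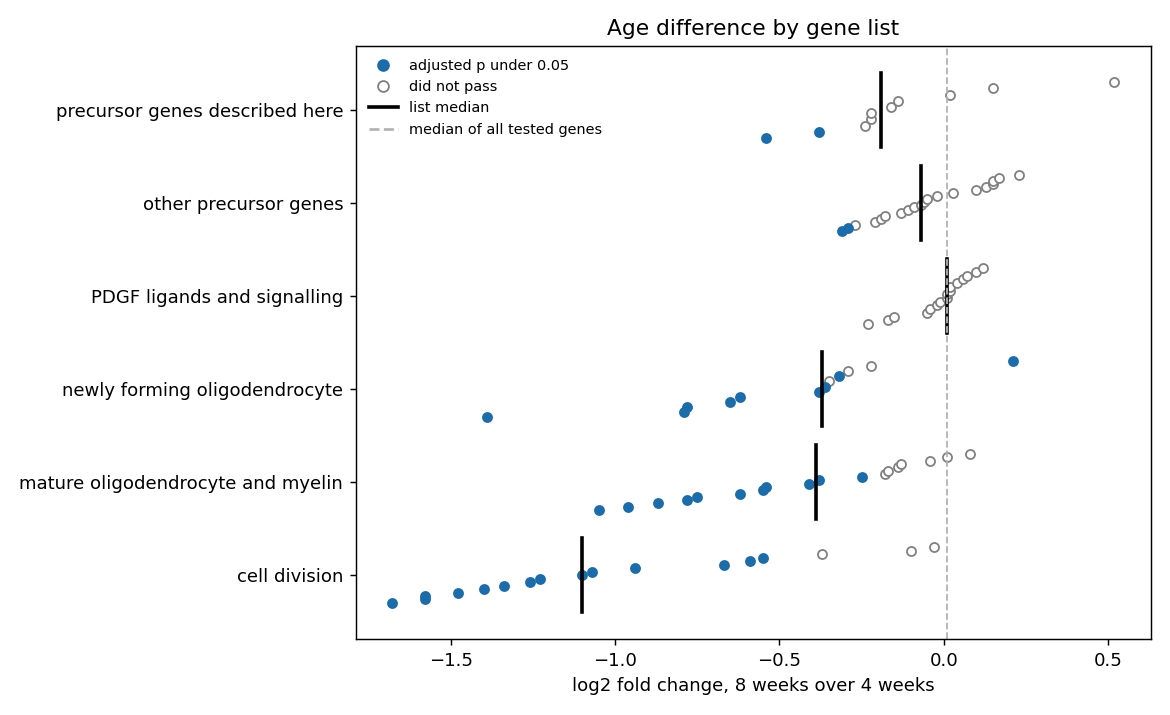
Log2 fold change of 8 weeks over 4 weeks for each tested gene of 6 lists. Filled points have an edgeR adjusted p under 0.05, black bars are list medians and the dashed line is the median of all tested genes. The median is −0.19 for the precursor genes described here and −1.10 for cell division.

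Markers of other cells that make some of these genes were measured in the same libraries, and their part in the members' values was not tested. Of 10 pericyte genes 2 were called lower, Des, a filament also of muscle, at −2.48 and the channel Kcnj8 at −0.74. The Kcnj8 call held without male 4-week library 2, male 8-week library 3 or female 8-week library 3 and ended without any 1 of the other 7 libraries, with adjusted p values up to 0.115, and with the muscle score neither was called and Des stood at 0.27 (SE 0.44). The summed level of the list was 132 to 205 CPM at 8 weeks and 146 to 221 CPM at 4 weeks. Of 12 genes of fibroblasts and meninges 5 were called lower and 1 higher, with the collagens Col1a1 at −2.42, Col1a2 at −2.10 and Col3a1 at −1.54 and the matrix protein Lum at −1.33, and the sums were 1147 to 2154 CPM at 8 weeks and 1528 to 2459 CPM at 4 weeks. With the muscle score 0 of these 12 were called, Lum stood at 0.32 (SE 0.50), and the list's median was 0.26, against −0.27 without the score. Of 10 endothelial genes 0 were called by edgeR, DESeq2 or limma-voom, 1 had an unadjusted edgeR p under 0.05, and the sums were 101 to 178 CPM at 8 weeks and 107 to 172 CPM at 4 weeks. Of 9 tested genes of cartilage and bone 6 were called lower, with changes from −3.98 to 0.31 and a median of −0.85. The list's sums, which weigh abundant genes most, were 79.2 to 123 CPM at 8 weeks and 116 to 162 CPM at 4 weeks. Those 6 calls became 3 without both male 4-week libraries, 3 without male 8-week libraries 2 and 3 and 0 with the muscle score. Of 12 skeletal muscle genes all were called lower, at 37.9 to 138 CPM at 8 weeks and 456 to 1793 CPM at 4 weeks, highest in male 4-week library 1. Lung epithelium genes summed to 799.9 and 92.4 CPM in male 8-week libraries 2 and 3, where Tmem100 was 23.7 and 22.5 CPM, against 1.04 to 8.42 CPM in the other 8 libraries. In those other 8 libraries 0 to 5 of the 6 lung genes were at 0. Astrocyte genes summed to 9939 to 11999 CPM at 8 weeks and 9444 to 11074 CPM at 4 weeks. Of these 10 genes 1 was called lower, and with each library left out 0 to 1 were lower and 0 to 2 higher.

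Some of these genes share exon sequence with a neighbour in the GENCODE annotation. Of Lhfpl3 exons 17.6% overlap the RNA gene A930003O13Rik on the opposite strand, of Pdgfra exons 4.55% overlap Gm42802, and of Matn4 exons 2.88% overlap Rbpjl, also on opposite strands. Whether the counting used strand is not stated in the sources used here, and reads from such stretches cannot be told apart.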

How the data were processed

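Spinal cord RNA of male and female mice was measured in 10 libraries. The authors deposited 1 table of raw, whole-number counts per library, made with TopHat2 2.1.0, featureCounts and build mm9, per the submitters' processing notes. RNA was taken with Trizol and libraries made by Illumina methods, per the labels' protocols. Counting options and annotation were not given in the sources used here. Symbols came from RefSeq (GRCm38.p6), which named 24191 of 26301 identifiers. The other 2110, with 0.956% or less of any library's counts, were kept.

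The tool was edgeR 4.0.16 (R 4.3.3), run on the counts (TMM scaling, filterByExpr with minimum count 10 and minimum total 15, 15540 genes kept, all 10 members among them) by the two-sided quasi-likelihood F test, Benjamini-Hochberg adjusted, threshold 0.05. Age over both sexes and sex were additive terms of 1 model (7 residual degrees of freedom), and age within a sex and the interaction were contrasts of 4 group means (6). SE is the absolute log2 fold change over the square root of F. Centred values are log2 CPM with a prior count of 2. Replicate pairs differed by more than sampling noise (chi-square over degrees of freedom 1.92 to 11.2). On simulated counts of 15418 genes for age over both sexes, 100% of genes changed by 1 on the log2 scale and 71% of those changed by 0.5 were recovered, with 7 false calls. The changed genes were drawn from the more abundant ones, with a preset dispersion and no transcripts of other tissues. These shares therefore need not hold for the libraries here.

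The 10 genes and the 16 lists (204 genes, all matched by symbol) were chosen with earlier results of these data known. Named are all members, from each list up to 4 genes with the lowest p among those called or else the 1 with the lowest p, and the 5 genes of nearest profile. The cartilage, muscle, lung, adrenal, astrocyte and endothelial lists are given only as counts and sums, with the median and range of changes for the first. Genes set beside a member as its relative or ligand are named too, as is Bcas1, called higher among the newly forming genes. Alternatives were other scaling, other filters, DESeq2 1.42.0, limma-voom (limma 3.58.1), the replicate number as a block, libraries left out and covariates. When both male 4-week libraries are left out, the age estimate comes from the female libraries alone, so fewer calls there may reflect fewer libraries. The skeletal muscle score is the mean centred log2 CPM of its 12 genes. Every 4-week library held more muscle transcript than any 8-week library, so a call lost with this score cannot be assigned to muscle or to age. The covariate of long genes was chosen after seeing the data.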

Additional observations from a re-analysis of the deposited data

Results flagged for a closer look

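Of 20 groups, the 10 genes at each age, 2 held a library that stood apart by Dixon's ratio of the gap to the range, and chance gives about 1 in 20. Matn4 was 6.36 CPM in male 8-week library 3, against 7.5 to 8.12 CPM in the other 8-week libraries (ratio 0.649, limit 0.625). Tmem100 was 25.9 CPM in male 8-week library 1, against 22.5 to 23.7 CPM in the other 8-week libraries (ratio 0.651, limit 0.625).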

How the results depend on the processing

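For age over both sexes, the 2 calls among the 10 genes became 1 with DESeq2 size factors, with library totals, with the filter set to 1 CPM in 4 libraries, with DESeq2 and with limma-voom, and in each of these 5 the gene lost was Emid1. They became 0 without both male 4-week libraries, without male 8-week libraries 2 and 3 and with the muscle score as a covariate, and 1 to 3 with each library left out in turn. Over 21 alternatives Neu4 was called in 18 (log2 fold change −0.61 to −0.28) and Emid1 in 5 (−0.67 to −0.42). The 1028 calls over all genes became 393 without both male 4-week libraries, 474 without male 8-week libraries 2 and 3, 26 with the muscle score and 1734 with the long-gene median as a covariate, and 719 to 1473 with each library left out. In males the 501 calls became 15 without male 8-week libraries 2 and 3 and 188 to 1199 with each library left out, and the members called were 0 to 2. In females the 226 calls became 340 with no filter, 118 without male 8-week libraries 2 and 3 and 62 to 394 with each library left out. The 2 calls of the interaction became 1 with limma-voom, 0 without male 8-week libraries 2 and 3 and 1 to 2 with each library left out, and the 14 calls for sex became 60 with no filter, 35 with DESeq2, 38 with the replicate block and 10 to 28 with each library left out. The causes of these shifts were not tested. Same-numbered libraries had deviations correlated between −0.213 and 0.236, with 5 of 13 pairs over 0.1. In a group of 2 libraries the deviations mirror each other, so these values are not independent and cannot settle pairing. The numbers were not taken to pair the libraries because the labels do not say that they are shared between groups. With the replicate number as a block, 3 members were called for age, Cspg4 (−0.36, edgeR adjusted p = 0.0194) with Neu4 and Emid1, and 808 genes in all.

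Some changes that did not pass turned in sign. For age over both sexes these were Pdgfra at 0.01 without both male 4-week libraries, Lhfpl3 at −0.02 with the long-gene median and −0.02 to 0.08 with each library left out, and, with the muscle score, Lhfpl3 at −0.16, Pcdh15 at −0.68, Matn4 at 0.03, Tmem100 at 0.19 and Xylt1 at −1.06. The called list genes Des (0.27) and Lum (0.32) turned with the muscle score as well. In males Matn4 stood at 0.02 without male 8-week libraries 2 and 3, and with each library left out Lhfpl3 ran between −0.14 and 0.12 and Pcdh15 between −0.27 and 0.32. In females Tmem100 stood at 0.00 with DESeq2 size factors, with no filter, with the 1 CPM filter and with DESeq2, at 0.01 with library totals and with limma-voom, and at 0.03 with the replicate block. With each library left out, it ran in females between −0.12 and 0.14, Pdgfra between −0.04 and 0.08 and Lhfpl3 between −0.00 and 0.14. For the interaction these ranges were −0.20 to 0.10 for Cspg4, −0.02 to 0.21 for C1ql1, −0.20 to 0.06 for Lhfpl3, −0.29 to 0.23 for Emid1, −0.26 to 0.08 for Neu4, −0.13 to 0.23 for Matn4 and −0.43 to 1.25 for Xylt1. For sex they were −0.02 to 0.08 for Pdgfra and −0.15 to 0.01 for Cspg4. Emid1, with 36 to 91 counts, and Xylt1, with 28 to 135, had the largest SEs of the group for age over both sexes, 0.15 and 0.24, and Matn4, with 68 to 88 counts, had 0.12.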
